A study of Mus musculus with 64 samples.

Results

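Wound beds of the mouse colon were compared between both arms of an antibiotic cohort, 6 h after injury. The comparison rests on 11 of the 64 libraries of the series, 5 with abx and 6 with veh in their titles, and the titles alone chose them. All came from the colon of C57BL/6 mice, an inbred laboratory strain, after a pinch biopsy, in which forceps remove a small piece of the mucosa. Per the labels' protocols, the cohort compared mice whose drinking water held broad-spectrum antibiotics with mice not so treated. The labels contradict themselves on which arm was which. The condition field reads control for titles with abx and antibiotic treated for titles with veh. Each arm is therefore named after its titles, abx-titled or veh-titled, every difference is abx-titled minus veh-titled, and no direction with respect to antibiotics can be stated. The drugs, the length of treatment, and the age, sex and housing of the mice are not stated in the sources used here. Beside the wound beds stood 6 abx-titled and 6 veh-titled shams of the same cohort, which are normal colon after a sham procedure. A separate time course without antibiotic arms gave 5 biopsies and 5 shams at the same hour.

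A fresh mucosal wound of the colon is covered by neighbouring epithelial cells within hours, while resident cells release interleukin-1, chemokines and prostaglandins that draw neutrophils out of the blood. The gut bacteria set the baseline for much of this tissue. Their products reach pattern recognition receptors, their fatty acids feed the colonocytes, and the bile acids and other compounds they make act on nuclear receptors that control detoxifying enzymes. A wound bed is a mixed piece of tissue with epithelium, blood, muscle and nerve, so a level is an average over all of these.

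RNA was measured as FPKM, fragments per kilobase of transcript scaled to the library's mapped total, which corrects for length and so allows levels of different genes to be set side by side. Differences were taken on the scale of log2(FPKM + 1), where changes of low genes come out too small. A gene was called where limma, fitted over all tested genes and adjusted by the Benjamini-Hochberg method, gave an adjusted p under 0.05. Of 11849 genes tested, 1781 were called between the wound beds, or 15%. Of these, 926 were higher (7.82%) and 855 lower (7.22%) in the abx-titled beds, and most differences were small, with 34 genes at or above 1 and 46 at or below -1 on the log2 scale. The 5 and 6 libraries did not overlap for 1002 genes (8.46%), 464 higher (3.92%) and 538 lower (4.54%). The even split depended on scaling. Median of ratios scaling called 840 higher and 1244 lower, and quantile normalization 862 and 1084, while the median difference over all genes lay between -0.01 and 0.01 under each of these and as deposited.

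Total FPKM was 241332 to 266646 per wound bed, and 10442 to 11058 genes reached 1 FPKM. Read counts are unknown. The size of the smallest steps in the values gave a relative depth, which spanned 1.56-fold with abx-titled bed 5 the shallowest. Markers of colon epithelium and of a wound at this hour were present in every wound bed, from the goblet cell mucin Muc2 at 127 to 305 FPKM to the wound keratin Krt6a at 37.1 to 89.1 FPKM, against at most 0.0322 FPKM of Krt6a in the shams. Some wound beds stood apart. Veh-titled bed 1 was the highest in inflammatory genes, veh-titled bed 4 was the lowest in muscle and nerve genes, and abx-titled beds 5 and 6 were the highest in globin genes. Leaving out abx-titled bed 5 and veh-titled beds 1 and 4 together reduced the calls from 1781 to 599. Nothing in the labels says that libraries came from separate animals, so p-values measure only how far these libraries scatter, and that scatter may be technical.

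The largest called difference between the wound beds was that of Cyp2c55, and with it 7 other genes of drug and foreign compound metabolism were lower in the abx-titled beds. Most of these were lower in the abx-titled shams as well. Cyp2c55 (chr19:39007019-39042693, + strand, protein-coding; coordinates here and below are from GENCODE vM21 on GRCm38) encodes a cytochrome P450 of colon and liver under the control of the nuclear receptors CAR and PXR. It was at 10.3, 14.98, 7.43, 8.23 and 3.03 FPKM in abx-titled wound beds 2, 3, 4, 5 and 6, an order kept for every gene below, and at 68.9 to 172 FPKM (median 113) in the 6 veh-titled beds. Every abx-titled bed was far below every veh-titled bed. The mean was 13.2 times higher in the veh-titled beds, and the log2 difference was -3.65 ± 0.45 (SE, adjusted p = 1.98e-05). Shams gave 3.53 to 47.6 FPKM (median 18.5) in the abx-titled and 159.8 to 469 FPKM (median 239) in the veh-titled arm, a log2 difference of -3.82 ± 0.43 (SE, adjusted p = 4.33e-06). The difference between wound bed and sham in this respect was 0.16 ± 0.62 (SE, adjusted p = 0.907). In the time course Cyp2c55 fell with injury by 1.43 on the log2 scale (adjusted p = 1.88e-04).

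Ces2a, a carboxylesterase that cleaves ester drugs, had the smallest adjusted p of the named genes. Its levels were 17.4, 12.4, 17.1, 12.03 and 17.05 FPKM in the abx-titled wound beds and 47.5 to 74.9 FPKM (median 66.5) in the veh-titled ones, without overlap, and the log2 difference was -1.99 ± 0.12 (SE, adjusted p = 1.32e-09). Abcb1a encodes P-glycoprotein, the efflux pump of the luminal membrane. It was at 23.7, 18.3, 25.5, 25.1 and 27.3 FPKM against 49.8 to 67.2 FPKM (median 58.00), again without overlap, with a log2 difference of -1.24 ± 0.13 (SE, adjusted p = 1.95e-06). The carboxylesterase Ces1f was low in both arms, at 0.205, 0.184, 0.581, 0.219 and 0.7 FPKM against 1.46 to 4.26 FPKM (median 1.98), a log2 difference of -1.22 ± 0.17 (SE, adjusted p = 7.00e-05). Of 23 tested genes of the xenobiotic metabolism list, 8 were lower and 1 higher, 39.1% against 15% of all genes, and their median difference was -0.21 against 0.01 over all genes. In the time course 19 of the 23 list members fell with injury, the 8 lower genes among them, against 43.2% of all genes. Between the shams 9 of the 23 were lower in the abx-titled arm, 7 of the 8 among them, against 9.20% of all genes. The 1 higher member was Cyp2c65, a neighbour of Cyp2c55 on chromosome 19, at 6.203, 5.08, 3.37, 3.75 and 2.74 FPKM against 1.73 to 2.39 FPKM (median 2.01), a log2 difference of 0.75 ± 0.20 (SE, adjusted p = 0.0142). The list had 5 lower and 0 higher members without the 3 beds that stood apart, where Cyp2c55, Ces2a and Abcb1a were still called, as under every other alternative. How reads shared by copies within the Cyp2c and Ces families were assigned is not given, so the split between neighbours is uncertain.

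Few genes of absorptive colonocytes were called. Car1, a carbonic anhydrase of surface colonocytes, was at 381, 480.3, 334, 298 and 348 FPKM in the abx-titled wound beds and at 1024 to 1480.0 FPKM (median 1165) in the veh-titled ones. The arms did not overlap, and the log2 difference was -1.73 ± 0.39 (SE, adjusted p = 0.00516) in wound beds and -1.75 ± 0.37 (SE, adjusted p = 0.00324) in shams. The call was lost without the 3 beds that stood apart, at an adjusted p of 0.0634. Slc9a3, the sodium-proton exchanger NHE3, was at 0.673, 0.296, 0.619, 1.38 and 0.4803 FPKM against 2.02 to 4.75 FPKM (median 3.998), with a log2 difference of -1.505 ± 0.25 (SE, adjusted p = 4.31e-04). Of 21 colonocyte genes tested, 3 were lower and 0 higher, or 14.3%. Over all genes 15% were called in either direction and 7.22% were lower. The 3 were Car1, Slc9a3 and the amino acid transporter Slc6a14, and all 3 were lower in the abx-titled shams as well. Of the 21, 17 pointed lower and 8 had an unadjusted p under 0.05, with a median of -0.22 in wound beds and -0.22 in shams. Krt20 at -0.02 and Cdx2 at -0.12 on the log2 scale were among the members not called. In bulk tissue fewer cells of a type and less RNA per cell cannot be told apart, here or below.

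**Figure D1:**
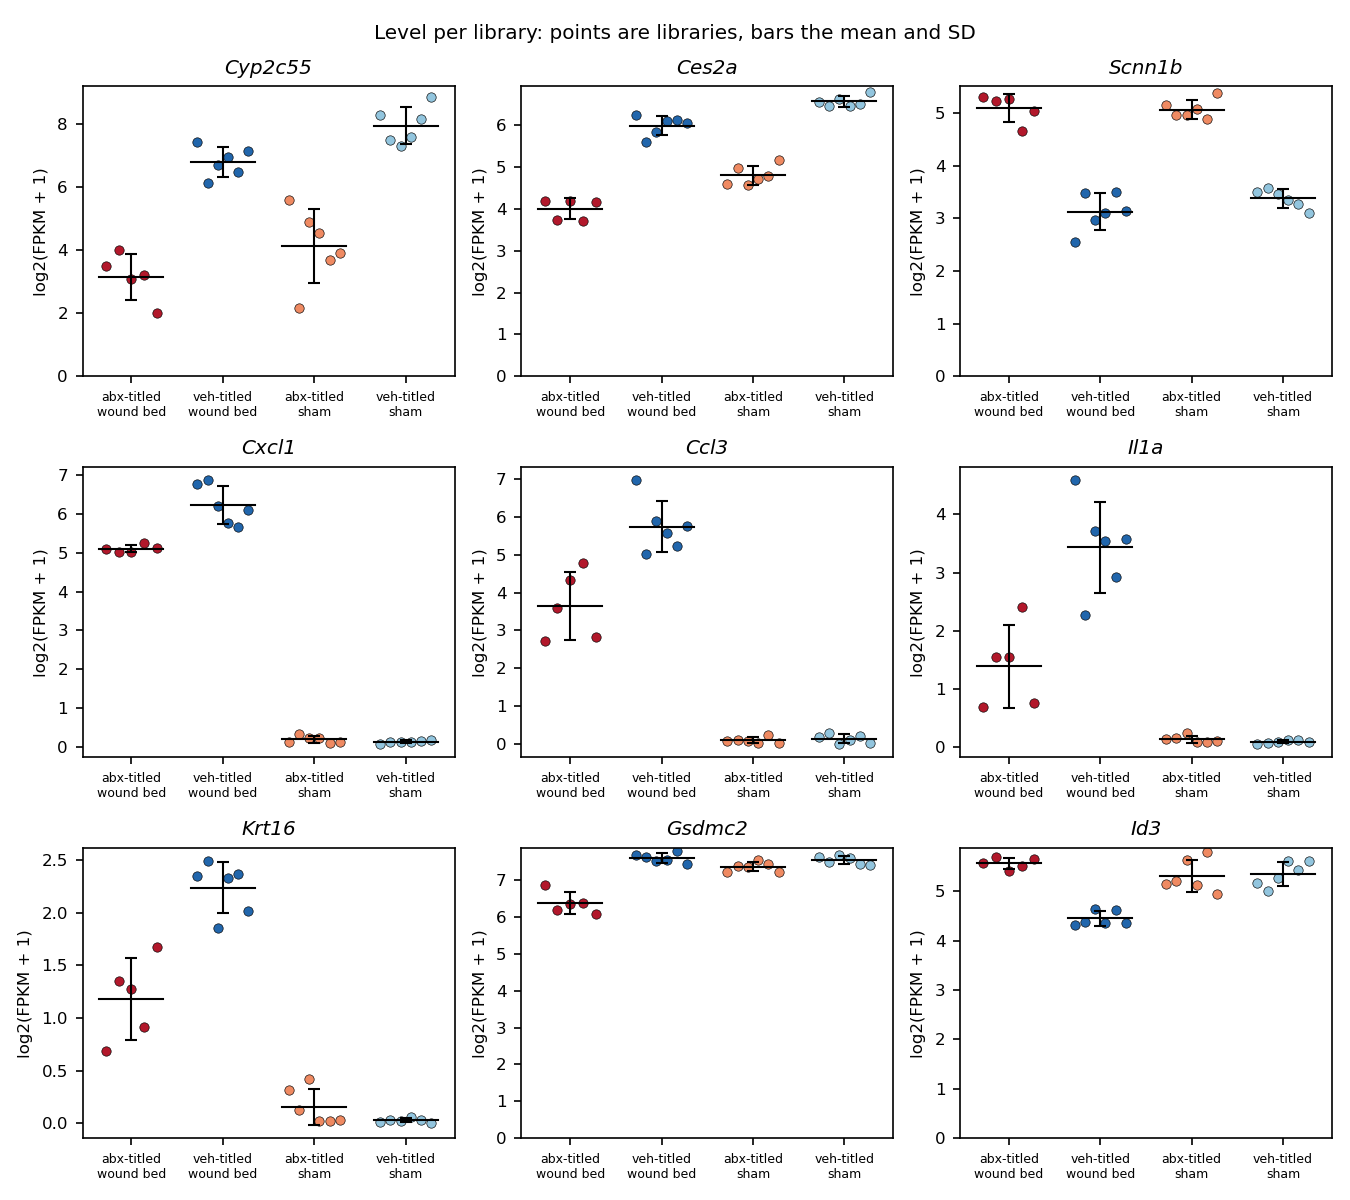
Level of 9 genes in the 23 libraries of the cohort as log2(FPKM + 1), with a point per library and the mean and SD as bars. Cyp2c55, Ces2a and Scnn1b separate the arms in wound beds and shams alike, whereas Cxcl1, Ccl3, Il1a and Krt16 are near 0 in all shams, and Gsdmc2 and Id3 differ between the arms in the wound beds, with shams that overlap.

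Hao2, a peroxisomal hydroxy acid oxidase, was at 3.81, 1.52, 1.45, 1.52 and 1.499 FPKM in the abx-titled wound beds and at 6.99 to 17.9 FPKM (median 10.9) in the veh-titled ones, a log2 difference of -2.01 ± 0.25 (SE, adjusted p = 2.28e-05). Ppy, the hormone pancreatic polypeptide of enteroendocrine cells, was at 0.586, 0.231, 2.12, 1.05 and 0.938 FPKM against 4.88 to 7.53 FPKM (median 6.49), and its difference was -1.92 ± 0.17 (SE, adjusted p = 2.75e-07) in wound beds and -2.31 ± 0.16 (SE, adjusted p = 3.92e-09) in shams. Neither gene overlapped between the arms. The glutathione transferase Gstm3 was lower, at -1.16 ± 0.13 (adjusted p = 4.51e-06). Other genes among the 15 lowest differences were the muscle actin Acta1 (-1.59), the pancreatic colipase Clps (-1.55), the muscle enolase Eno3 (-1.53), the calcium-binding protein S100g (-1.49) and the transglutaminase Tgm3 (-1.35), each called in wound beds and in shams.

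Scnn1b and Scnn1g were higher in the abx-titled arm with or without a wound. They encode the beta and gamma subunits of ENaC, the epithelial sodium channel of the distal colon that aldosterone induces, and lie near each other on chromosome 7. Scnn1b (chr7:121865038-121918514, + strand) was at 38.4, 36.5, 37.5, 24.3 and 31.8 FPKM in the abx-titled wound beds and at 4.88 to 10.3 FPKM (median 7.701) in the veh-titled ones. Every abx-titled bed lay well above every veh-titled bed. The log2 difference was 1.97 ± 0.14 (SE, adjusted p = 1.99e-08) in wound beds and 1.69 ± 0.14 (SE, adjusted p = 4.65e-08) in shams. Scnn1g (chr7:121734479-121768475, + strand) was at 38.6, 26.7, 24.1, 23.2 and 24.1 FPKM against 5.698 to 14.6 FPKM (median 10.9), a difference of 1.27 ± 0.21 (SE, adjusted p = 3.24e-04) in wound beds and 1.76 ± 0.20 (SE, adjusted p = 4.33e-06) in shams. Both calls held under every alternative. The alpha subunit Scnn1a, at 23.1, 19.7, 20.2, 24.2 and 22.5 FPKM against 21.3 to 30.3 FPKM (median 22.98), overlapped between the arms and was not called (-0.15 ± 0.11 SE, adjusted p = 0.373). Scnn1a and the genes Fkbp5 and Cldn8 were chosen after their values were seen. Fkbp5, a chaperone partner and target of the glucocorticoid receptor, was higher by 0.98 ± 0.14 (SE, adjusted p = 8.87e-05), and Cldn8, a tight junction claudin of the distal colon, by 1.02 ± 0.18 (SE, adjusted p = 6.72e-04). Both were also higher in the abx-titled shams, by 0.65 and 0.95.

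Shams gave 1490 calls between the arms (12.6%), 400 higher (3.38%) and 1090 lower (9.20%), a split that became 602 and 802 under median of ratios scaling and 724 and 888 under quantile normalization. Of the genes called between the wound beds, 433 were called in the same direction between the shams and 25 in the opposite direction. No library is shared by these comparisons, but both used the same estimate of each gene's scatter. A gene with little scatter is thus more easily called in both, and how much of the overlap this gives was not tested. The 433 were 24.3% of the wound bed calls and 29.1% of the sham calls. Among genes lower in the abx-titled wound beds, 33.1% were also lower in the abx-titled shams, against 9.2% of all tested genes, and among genes higher, 16.2% were also higher there, against 3.38%. A test of whether the arm difference itself differed between wound bed and sham called 392 genes (3.31%), 311 with a more positive (2.62%) and 81 with a more negative (0.684%) difference in the wound beds. That split turned to 222 and 247 under median of ratios scaling and to 215 and 211 under quantile normalization, and the total was 101 without the 3 beds that stood apart.

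**Figure D2:**
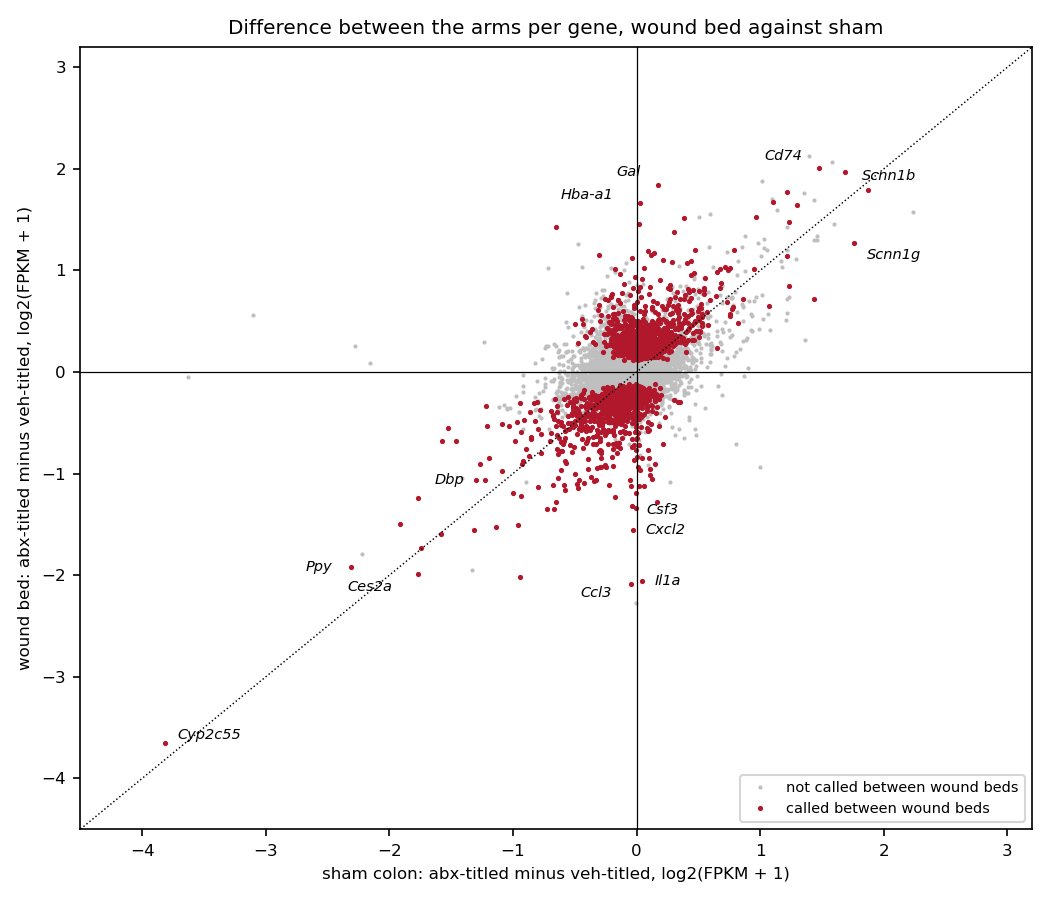
Difference between the arms for each of the 11849 tested genes, with shams on the horizontal and wound beds on the vertical axis, both as log2(FPKM + 1), abx-titled minus veh-titled. Cyp2c55, Ces2a, Ppy, Scnn1b and Scnn1g lie along the dotted diagonal of equal difference, and Il1a, Ccl3, Cxcl2 and Csf3 lie below 0 in wound beds with shams near 0.

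Of the cytokines and chemokines that a colon wound releases first, 10 were lower in the abx-titled wound beds, among them Cxcl1, Cxcl2, Ccl3, Il1a and Csf3. The summed level of the list was 367 to 615 FPKM in the abx-titled and 516 to 1455 FPKM in the veh-titled wound beds, against 3.73 to 21.7 FPKM in the shams of both arms. Of 20 tested members of the acute cytokine list, 10 were lower and 1 higher, 55.0% against 15% of all genes, 17 of 20 pointed lower, and the median difference was -0.59 against 0.01 over all genes. Between the shams 0 were called by limma, with 2 at an unadjusted p under 0.05. The arm difference was more negative in the wound beds than in the shams for 6 of the 20, all among the 10 lower ones, against 0.684% of all genes. With so little of these genes in the shams, log2(FPKM + 1) keeps differences between the shams small. That test, and the lack of sham calls, therefore largely repeat the difference between the wound beds. The call of Ccl3 in that test was lost with a pseudocount of 0.1. Of the 18 members tested in the independent time course, 17 rose with injury and 0 fell. The 10 lower ones were all among those that rose, so that rise does not set them apart within the list. Over all genes there, 67.5% were called, 24.3% up and 43.2% down. These were 3227 and 5734 genes as deposited, and 4259 and 4353 under median of ratios scaling. The cytokine list had 8 lower members without veh-titled bed 1, the library highest in these genes, and 10 without the 3 beds that stood apart.

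Cxcl1 and Cxcl2, chemokines that draw neutrophils through their receptor Cxcr2, lie with Cxcl3 and Cxcl5 in a cluster on chromosome 5. Cxcl1 (chr5:90891241-90893115, + strand) was at 33.2, 31.6, 31.3, 37.2 and 33.9 FPKM in the abx-titled wound beds and at 49.8 to 115 FPKM (median 69.8) in the veh-titled ones. The abx-titled values were close together and all below the lowest veh-titled value. The log2 difference was -1.12 ± 0.15 (SE, adjusted p = 5.70e-05), against 0.06 ± 0.14 (SE, adjusted p = 0.825) in shams, and the difference of these was -1.18 ± 0.21 (SE, adjusted p = 0.00394). Cxcl2 (chr5:90903871-90905938, + strand) was at 24.5, 41.2, 44.9, 72.01 and 27.7 FPKM against 85.6 to 247 FPKM (median 102). The arms did not overlap, and veh-titled bed 1 stood far above the other veh-titled beds. Its difference was -1.55 ± 0.23 (SE, adjusted p = 1.03e-04) in wound beds and -1.52 ± 0.31 (SE, adjusted p = 0.01) relative to shams. Cxcl5 overlapped between the arms and was lower, at -0.57 ± 0.13 (SE, adjusted p = 0.00626). Cxcl3 pointed the same way without a call, though it was called under 7 of 20 alternatives (-0.73 ± 0.25 SE, adjusted p = 0.0558), at 14.1, 22.1, 26.7, 43.1 and 13.6 FPKM against 21.99 to 80.6 FPKM (median 36.6).

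The 250 bases before the gene starts of Cxcl1, Cxcl2 and Cxcl3 are shown because a run of 11 bases, GGGAATTTCCC, is the longest that all of them share. It is in capitals, and it resembles the textbook binding motif of NF-kB, the factor through which interleukin-1 and bacterial products act on chemokine genes. The sequences are from RefSeq on GRCm38.p6, read 5′ to 3′ on the + strand, at chr5:90890995-90891244, chr5:90903649-90903898 and chr5:90785851-90786100 in that order.
Cxcl1: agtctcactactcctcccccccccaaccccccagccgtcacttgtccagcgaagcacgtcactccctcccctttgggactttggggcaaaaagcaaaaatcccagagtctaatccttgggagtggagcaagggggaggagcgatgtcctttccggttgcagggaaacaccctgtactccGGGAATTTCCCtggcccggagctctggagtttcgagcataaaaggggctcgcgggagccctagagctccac
Cxcl2: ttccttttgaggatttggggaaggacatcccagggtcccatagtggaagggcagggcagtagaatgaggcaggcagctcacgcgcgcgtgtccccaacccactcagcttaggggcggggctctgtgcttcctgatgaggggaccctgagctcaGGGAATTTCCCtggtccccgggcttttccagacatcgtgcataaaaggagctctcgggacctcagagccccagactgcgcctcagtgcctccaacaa
Cxcl3: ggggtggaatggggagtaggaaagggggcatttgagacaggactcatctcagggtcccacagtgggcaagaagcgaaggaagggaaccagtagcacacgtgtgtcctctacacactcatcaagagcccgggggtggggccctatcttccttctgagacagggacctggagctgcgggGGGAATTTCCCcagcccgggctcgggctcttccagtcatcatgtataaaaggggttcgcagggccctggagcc
The run lies at -71 to -61 from the RefSeq gene start in Cxcl1, at -97 to -87 in Cxcl2 and at -73 to -63 in Cxcl3. The RefSeq starts of Cxcl1 and Cxcl2 lie downstream of the GENCODE starts given above. The last printed bases of both are thus inside the gene by GENCODE, and the position in Cxcl2 depends on the annotation. Searched on both strands from 250 bases before to 50 after the start, it was found in 14 of 32851 RefSeq windows (0.0426%), in 6 of 8908 tested genes with a window (0.0674%) and in 3 of 13 such genes of the cytokine list, the 3 it was taken from. A match describes letters and not binding.

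Ccl3 and Ccl4, chemokines of activated macrophages and neutrophils, are neighbours on chromosome 11. Ccl3 (chr11:83647844-83649355, - strand) was at 5.61, 11.1, 19.2, 26.2 and 6.102 FPKM in the abx-titled wound beds and at 31.6 to 124 FPKM (median 49.96) in the veh-titled ones, without overlap, and its log2 difference was -2.09 ± 0.31 (SE, adjusted p = 1.20e-04). Ccl4 was lower, at -1.28 ± 0.29 (SE, adjusted p = 0.00504), with abx-titled bed 5 inside the veh-titled range. Il1a (chr2:129299610-129309972, - strand) encodes interleukin-1 alpha, an alarm signal released by damaged cells. It was at 0.604, 1.91, 1.904, 4.305 and 0.679 FPKM against 3.83 to 23.1 FPKM (median 10.8). Abx-titled bed 5 reached the lower end of the veh-titled range and the other abx-titled beds were below it. The difference was -2.05 ± 0.29 (SE, adjusted p = 8.57e-05) between wound beds and -2.10 ± 0.40 (SE, adjusted p = 0.00658) relative to shams. Il1b, interleukin-1 beta, was at 31.1, 54.3, 72.7, 79.3 and 40.3 FPKM against 77.6 to 219 FPKM (median 87.05), lower, at -1.01 ± 0.23 (SE, adjusted p = 0.00554) and likewise overlapping only through abx-titled bed 5. Relative to shams the Il1b difference was -1.12 and missed the threshold (adjusted p = 0.0533).

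Csf3, the growth factor G-CSF that mobilises neutrophils, was at 1.35, 2.67, 0.972, 1.15 and 3.33 FPKM in the abx-titled wound beds and at 4.34 to 12.1 FPKM (median 5.102) in the veh-titled ones. The arms did not overlap, and the difference was -1.34 ± 0.20 (SE, adjusted p = 1.12e-04). Tnf and Il6 were lower by less, with -0.71 ± 0.23 (SE, adjusted p = 0.0382) and -0.60 ± 0.19 (SE, adjusted p = 0.0339), and the call of Il6 was lost under 9 alternatives. The monocyte chemokines Ccl2 and Ccl7 were not called, at -0.07 ± 0.28 (SE, adjusted p = 0.901) and 0.24 ± 0.38 (SE, adjusted p = 0.707). Ccl2 lay at 85.2, 73.3, 84.7, 97.8 and 86.3 FPKM against 38.6 to 150.3 FPKM (median 98.04), so the abx-titled values fell inside the wider veh-titled range. Il24, an epithelial cytokine of the interleukin-10 family, was the 1 higher member, at 0.27 (adjusted p = 0.0417) and at 0.683 to 1.82 FPKM over all beds. Ptgs2, the inducible prostaglandin synthase COX-2, was at 4.23, 3.12, 5.61, 5.45 and 4.31 FPKM against 6.51 to 17.4 FPKM (median 8.96) without overlap, a difference of -0.94 ± 0.16 (SE, adjusted p = 6.61e-04). Nlrp3, the inflammasome sensor that leads to interleukin-1 beta release, was lower, at -1.12 ± 0.23 (SE, adjusted p = 0.00247). Calls of Il1a, Cxcl1, Cxcl2, Ccl3, Csf3, Ptgs2 and Il1b held under every alternative.

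Neutrophil markers overlapped between the arms. Their summed level was 209 to 466 FPKM in the abx-titled and 222 to 986 FPKM in the veh-titled wound beds, which overlapped, against 12.2 to 59.3 FPKM in the shams. S100a8, a calgranulin subunit packed in neutrophils, was at 74.8, 138, 152, 169.5 and 118 FPKM against 74.1 to 357 FPKM (median 133), with a difference of -0.12 ± 0.27 (SE, adjusted p = 0.799). Of 16 members tested, 1 was higher and 2 lower, or 18.8%, near the 15% of all genes, and none was called when only the wound beds entered the fit. The higher one was Retnlg, a resistin-like protein of neutrophils (0.79 ± 0.20 SE, adjusted p = 0.0119), and the lower ones were Hcar2, a receptor for butyrate and niacin (-0.95 ± 0.22 SE, adjusted p = 0.00504), and Clec4e, the sensor Mincle (-0.84 ± 0.22 SE, adjusted p = 0.0127). Of 19 macrophage and monocyte markers, 1 was called (5.26%, below the 15% of all genes), the chitinase-like Chil3, at 5.58, 9.41, 9.78, 7.36 and 2.28 FPKM against 0.66 to 3.27 FPKM (median 2.56), a log2 difference of 1.19 ± 0.24 (SE, adjusted p = 0.0024). Between the shams 7 of the 19 markers were lower in the abx-titled arm and 0 higher, where 9.20% of all genes were lower. The arm difference was more positive in the wound beds than in the shams for 3 of the 19, against 2.62% of all genes. In that limma test 13 of the 19 had an unadjusted p under 0.05. Arg1, an arginase of repair macrophages, missed the threshold between the wound beds at 0.50 ± 0.17 (SE, adjusted p = 0.052) and passed it under 7 of 19 alternatives.

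Keratins that the colon epithelium switches on at a wound were also lower in the abx-titled wound beds. Krt13, a keratin of stratified epithelia, was at 3.51, 3.28, 5.91, 3.68 and 5.18 FPKM against 7.21 to 18.1 FPKM (median 10.5) without overlap, and its log2 difference was -1.19 ± 0.16 (SE, adjusted p = 6.48e-05), or -1.18 ± 0.23 (SE, adjusted p = 0.0062) relative to shams. The call relative to shams was lost with a pseudocount of 0.1 (adjusted p = 0.135 in limma). Krt14, of basal cells, was lower, at -0.84 ± 0.13 (SE, adjusted p = 1.55e-04), and Krt6a and Krt6b, of migrating wound edges, at -0.49 and -0.59 (adjusted p = 0.028 and 0.00541). The call of Krt6a was lost under 10 of 20 alternatives and that of Krt6b under 2. Krt6a and Krt6b are close copies, so the split of reads between them is uncertain. Krt16 and Krt36, chosen after their values were seen, showed the same. Krt16 was at 0.605, 1.55, 1.42, 0.889 and 2.19 FPKM against 2.63 to 4.62 FPKM (median 4.08), a difference of -1.06 ± 0.14 (SE, adjusted p = 3.54e-05). Krt36 was at 13.5, 22.04, 23.2, 12.3 and 20.4 FPKM against 33.9 to 68.9 FPKM (median 43.2), a difference of -1.32 ± 0.19 (SE, adjusted p = 8.13e-05). Krt13, Krt14, Krt16 and Krt36 lie in the keratin cluster of chromosome 11. The summed level of 11 squamous markers was 12.3 to 16.6 FPKM in the abx-titled and 21.1 to 29.6 FPKM in the veh-titled beds, without overlap, against 1.98 to 3.91 FPKM in the shams; the part of squamous tissue in these differences was not tested. Of the 4 squamous markers tested, 3 were lower and 0 higher, or 75.0% against 15% of all genes.

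Of 23 tested genes of wound-associated epithelium, 5 were lower and 1 higher, 26.1% against 15% of all genes, and the median difference was -0.13. The lower ones beside the keratins were the growth factor Ereg (-0.44) and the coagulation starter F3 (-0.56), and the higher one was mesothelin, Msln (0.48). Members such as Plaur (-0.13), Anxa1 (-0.15) and Clu (0.16) were not called. Between the shams 7 of the 23 were lower in the abx-titled arm and 1 higher, where 9.20% and 3.38% of all genes were. Of the 5 lower in the wound beds, only F3 was also called lower there, at -0.55 ± 0.15 (SE, adjusted p = 0.0168). The arm difference differed between wound bed and sham for 1 of the 23, Krt14. The lower members numbered 2 without abx-titled bed 2, 3 without abx-titled bed 4 or 5 or without veh-titled bed 1, 2 or 6, and 1 without the 3 beds that stood apart.

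The gasdermin C genes, which encode pore-forming proteins of the gut epithelium, stood together at chr15:63775968-63912297 and were all lower in the abx-titled wound beds. Gsdmc4 was named by its size of difference, and Gsdmc, Gsdmc2 and Gsdmc3 were added after their values were seen. Gsdmc2 was at 115, 71.8, 80.5, 82.03 and 66.5 FPKM against 171 to 219 FPKM (median 191), and Gsdmc4 at 186, 111, 123, 126 and 106 FPKM against 299 to 362 FPKM (median 321). The 4 genes did not overlap between the arms. Their log2 differences were -0.94 for Gsdmc, -1.23 for Gsdmc2, -0.90 for Gsdmc3 and -1.35 for Gsdmc4, with adjusted p between 1.30e-07 and 7.22e-05. The arm difference was nearer 0 in the shams, at -0.30, -0.18, 0.15 and -0.67 in the same order, and it differed from that of the wound beds for each gene, at -0.64, -1.05, -1.05 and -0.68 (adjusted p at most 0.0318). That call was lost for Gsdmc4 under 13 of 33 alternatives and for the other 3 under none. The copies are nearly identical, so how reads were divided among them is uncertain.

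Of 24 tested genes of cholesterol and lipid synthesis, 10 were lower and 0 higher in the abx-titled wound beds, 41.7% against 15% of all genes, 23 of 24 pointed lower, and the median difference was -0.37. Dhcr7, the enzyme of the last step to cholesterol, was at 11.5, 10.02, 8.91, 9.64 and 8.197 FPKM against 16.3 to 21.7 FPKM (median 19.01) without overlap, and its difference was -0.94 ± 0.09 (SE, adjusted p = 2.75e-07), or -0.62 ± 0.12 (SE, adjusted p = 0.0062) relative to shams. Hmgcs1 and Idi1, early enzymes of the mevalonate pathway, were lower, at -0.58 ± 0.15 (SE, adjusted p = 0.0124) and -0.60 ± 0.14 (SE, adjusted p = 0.00717), and the desaturase Scd2, at -0.92 ± 0.20 (SE, adjusted p = 0.00396). Insig1, Fdft1, Lss and Mvd were called as well, with differences of -0.50 to -0.38. In shams 3 of the 24 were lower, where 9.20% of all genes were. Leaving out 1 library gave 5 to 13 lower members, the fewest without abx-titled bed 4 or veh-titled bed 2 and 6 without abx-titled bed 6 or veh-titled bed 4, and the count was 3 without the 3 beds that stood apart.

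**Figure D3:**
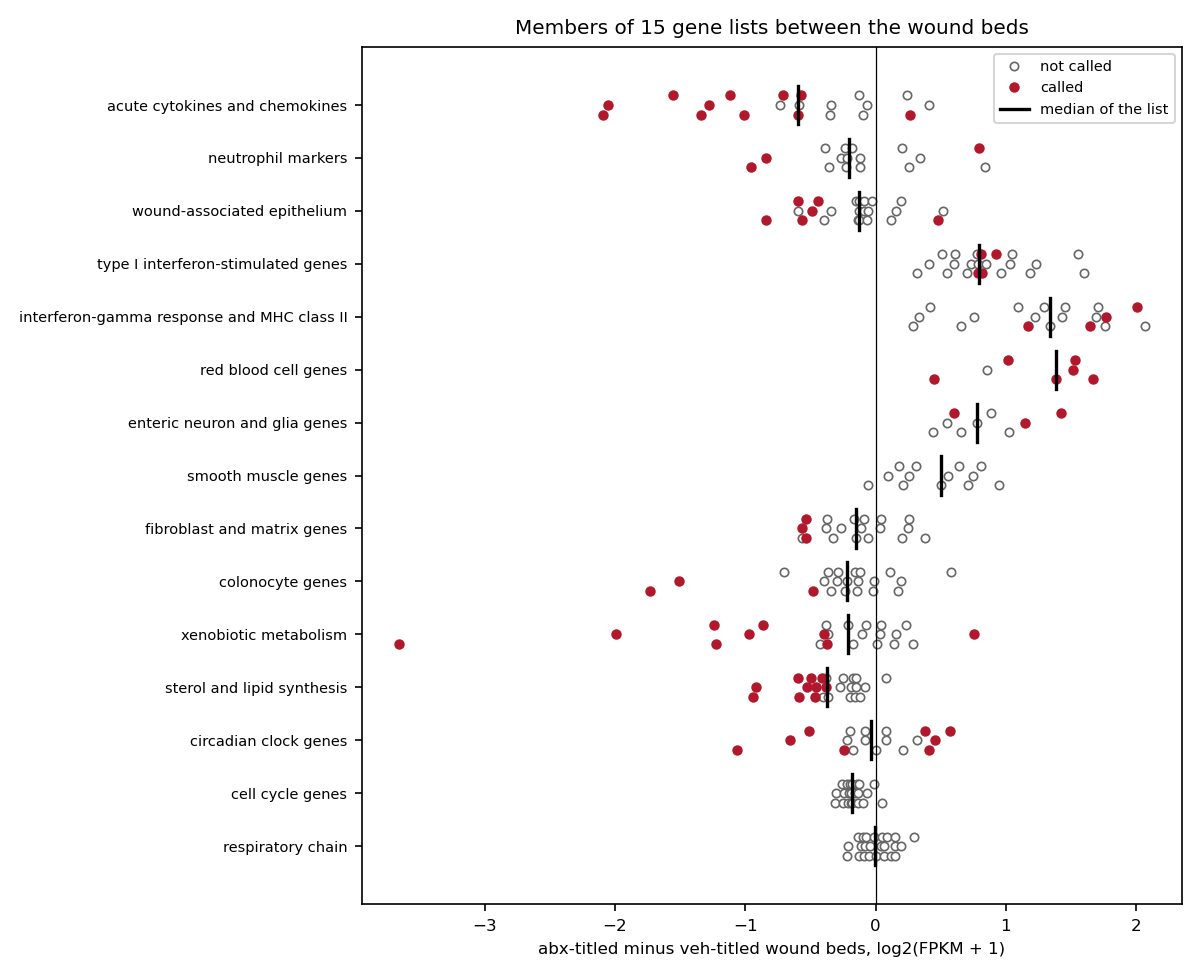
Log2 difference between the wound beds, abx-titled minus veh-titled, for every tested member of 15 gene lists, with called members filled and the median of each list as a bar. Acute cytokines and sterol synthesis lie mostly below 0, interferon, red blood cell and nerve genes above it, cell cycle genes slightly below it with no member called, and respiratory chain genes on both sides of it.

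Interferon-responsive genes and MHC class II genes pointed higher in the abx-titled wound beds, with wide spread. All 19 tested genes of the interferon-gamma and MHC class II list pointed higher, with a median of 1.34 against 0.01 over all genes, and 4 were called, or 21.1% against 15% of all genes. Cd74, the invariant chain that escorts MHC class II, was at 173, 39.9, 477, 269.9 and 515 FPKM in the abx-titled wound beds and at 40.3 to 87.2 FPKM (median 47.6) in the veh-titled ones. Abx-titled bed 3 lay just below the veh-titled range and the other abx-titled beds above it, and the difference was 2.01 ± 0.68 (SE, adjusted p = 0.04997). Tap1, the peptide pump of MHC class I, was at 12.1, 7.21, 9.14, 24.9 and 13.5 FPKM against 2.05 to 4.83 FPKM (median 3.52), again lowest in bed 3 but without overlap (1.65 ± 0.53 SE, adjusted p = 0.0405). Psmb9, an immunoproteasome subunit, was at 13.2, 4.48, 12.9, 24.7 and 20.3 FPKM against 1.88 to 4.95 FPKM (median 3.32), a log2 difference of 1.77 ± 0.54 (SE, adjusted p = 0.0309). Irf1, a transcription factor induced by interferon-gamma, was higher by 1.17 ± 0.34 (SE, adjusted p = 0.0252). Gbp2, an interferon-induced GTPase, was at 42.3, 18.9, 25.7, 143 and 60.4 FPKM against 6.42 to 17.01 FPKM (median 10.2), which did not overlap, yet was not called (2.07 ± 0.79 SE, adjusted p = 0.0816).

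The same list had a median of 1.17 between the shams, with 1 gene called, and 0 genes called by limma for a difference between wound bed and sham, with 1 at an unadjusted p under 0.05. Its summed level was 214 to 1105 FPKM in the abx-titled and 139 to 283 FPKM in the veh-titled wound beds, and 141 to 2550.2 FPKM in the abx-titled and 247 to 350.2 FPKM in the veh-titled shams. Bed 3 of the abx-titled wound beds and 2 abx-titled shams were thus within or below the veh-titled range. The count of called members was 0 without abx-titled bed 5 or without veh-titled bed 6, 1 without abx-titled bed 2, 4 or 6 or veh-titled bed 1 or 5, 2 without veh-titled bed 2 or 4, 10 without abx-titled bed 3 and 16 when only the wound beds entered the fit. Of 22 type I interferon-stimulated genes all pointed higher, with a median of 0.80 in wound beds and 0.42 in shams. In limma 17 of them had an unadjusted p under 0.05 between the wound beds, as had 3566 of the 11849 genes tested. Of them 4 were called, or 18.2%, all higher, where 7.82% of all genes were higher. They were Bst2 (0.93 ± 0.26 SE, adjusted p = 0.0202), Ifi44 (0.79 ± 0.23 SE, adjusted p = 0.0244), Oas1a (0.81 ± 0.20 SE, adjusted p = 0.00862) and Oasl1 (0.82 ± 0.23 SE, adjusted p = 0.0219). That count was 0 without the 3 beds that stood apart, 1 without abx-titled bed 5, 8 without abx-titled bed 6 and 10 without veh-titled bed 3. Of 20 alternatives, Cd74 and Tap1 lost their calls under 12, Psmb9 under 9 and Irf1 under 4. Il18bp, an antagonist of interleukin-18, was higher by 1.80 ± 0.59 (SE, adjusted p = 0.0429) with bed 3 again at 1.99 FPKM, inside the veh-titled range. Tap1 and Psmb9 run in opposite directions from starts 226 bases apart in RefSeq, and their annotated extents overlap in GENCODE, so reads there cannot be told apart where strand was not used.

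Blood, nerve and muscle genes differed with single libraries. Of 7 tested red blood cell genes 6 were higher, or 85.7% against 15% of all genes, with a median of 1.38. The alpha globin Hba-a1 was at 145, 213, 117, 648 and 1036 FPKM against 60.5 to 197 FPKM (median 80.4), so beds 5 and 6 stood far above all others, and the difference was 1.67 ± 0.52 (SE, adjusted p = 0.0344). Alas2, which starts haem synthesis in red cells, showed the same order at 1.97, 1.68, 1.04, 5.51 and 9.93 FPKM against 0.591 to 1.99 FPKM (median 0.921), a log2 difference of 1.02 ± 0.29 (SE, adjusted p = 0.02). The count of called members was 0 without abx-titled bed 5, 1 without bed 6, 2 without veh-titled bed 4 or 6, 3 without veh-titled bed 5, 4 without abx-titled bed 3 or veh-titled bed 2, and 0 when only the wound beds entered the fit. Globin genes have close copies, so values of single copies are uncertain.

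Of 9 tested genes of enteric neurons and glia, all 9 pointed higher and 3 were called, or 33.3% against 15% of all genes, with a median of 0.78. Vip, a neuropeptide of enteric neurons, was at 18.9, 39.6, 41.7, 28.2 and 16.7 FPKM against 0.777 to 21.98 FPKM (median 15.1), a log2 difference of 1.43 ± 0.46 (SE, adjusted p = 0.0406), and the neuropeptide galanin, Gal, at 23.5, 61.3, 47.5, 36.4 and 25.2 FPKM against 0.291 to 21.1 FPKM (median 14.99), a log2 difference of 1.84 ± 0.61 (SE, adjusted p = 0.0442). Veh-titled bed 4 held both lowest values. Uchl1, a neuronal ubiquitin hydrolase, was higher by 1.15 ± 0.38 (SE, adjusted p = 0.0462), and Ret, a receptor of enteric neurons, by 0.60 ± 0.13 (SE, adjusted p = 0.00481). Of 20 alternatives, Uchl1 lost its call under 12, Gal under 11 and Vip under 9, while Ret lost its call under 1 of 19. Summed nerve genes were at 45.5 to 119 FPKM in the abx-titled and 6.53 to 74.7 FPKM in the veh-titled beds, and summed smooth muscle genes at 974 to 2364 FPKM and 189.8 to 3142 FPKM. Of 13 smooth muscle genes 0 were called by limma and 0 had an unadjusted p under 0.05, with a median of 0.50 that dropped to 0.05 without veh-titled bed 4. Calls in the nerve list went from 3 to 1 without that bed, as without abx-titled bed 3, 4 or 5 or veh-titled bed 2, to 5 without abx-titled bed 6, to 7 without abx-titled bed 2 and to 8 without veh-titled bed 3. Depth of the biopsy into the muscle layer was not tested.

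**Figure D4:**
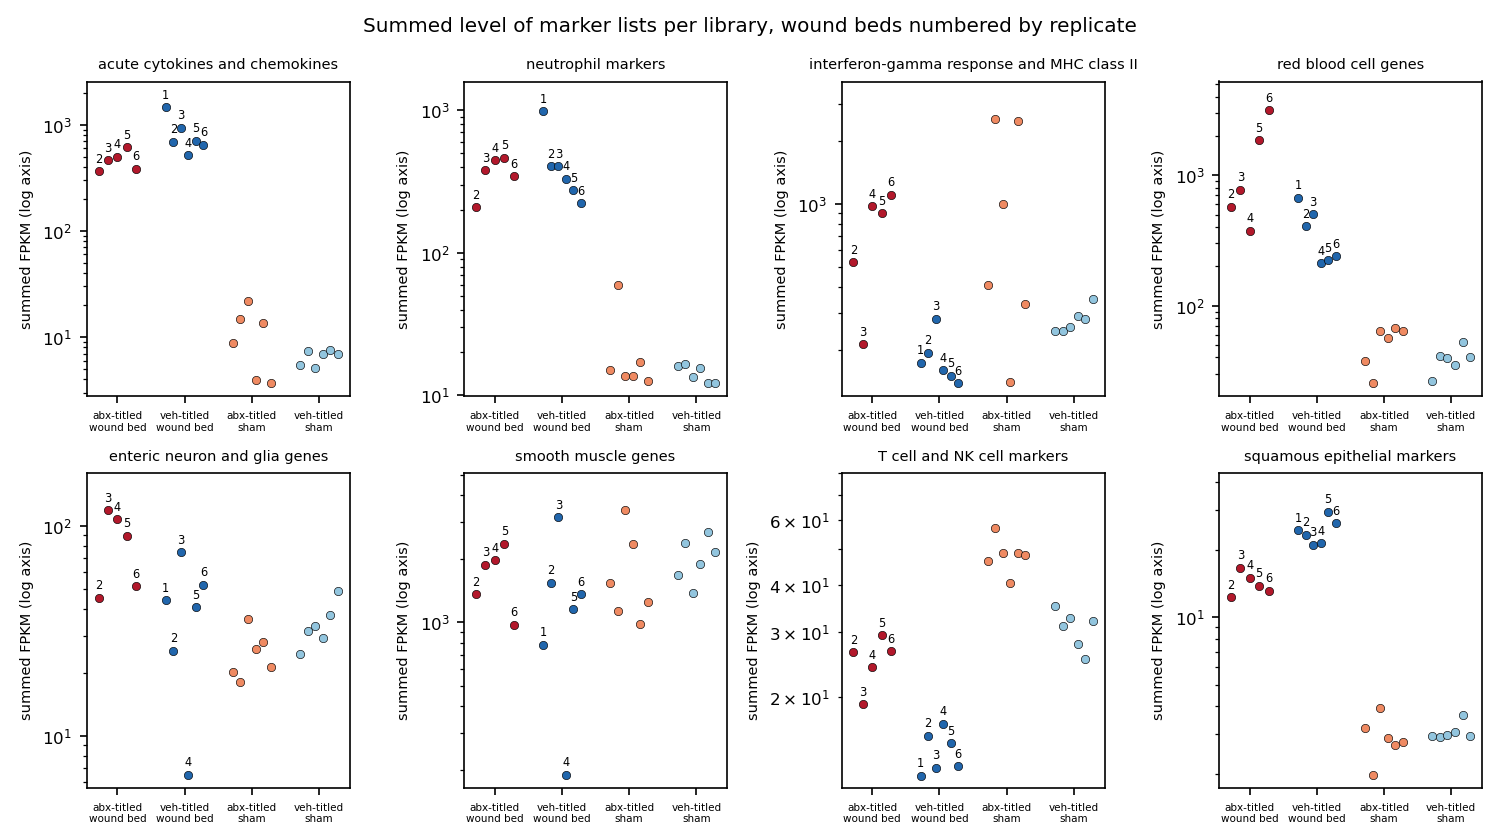
Summed FPKM of 8 marker lists per library on log axes, with wound beds numbered by replicate. Squamous sums are lower and T and NK cell sums higher in every abx-titled bed, cytokine sums overlap only between abx-titled bed 5 and veh-titled bed 4, neutrophil sums overlap, globin sums are highest in abx-titled beds 5 and 6, and nerve and muscle sums are lowest in veh-titled bed 4.

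Clock genes differed between the arms in both tissues. Dbp, a transcription factor that follows the day, was at 7.09, 3.95, 4.14, 4.48 and 7.43 FPKM in the abx-titled wound beds and at 9.46 to 15.5 FPKM (median 11.9) in the veh-titled ones, without overlap. Its difference was -1.06 ± 0.16 (SE, adjusted p = 1.98e-04) in wound beds and -1.23 ± 0.16 (SE, adjusted p = 2.15e-05) in shams. Nr1d1, the clock repressor REV-ERB alpha, was at 22.9, 18.3, 21.7, 20.7 and 22.4 FPKM against 26.9 to 34.95 FPKM (median 31.2), a log2 difference of -0.51 ± 0.10 (SE, adjusted p = 0.00146). Its arm difference was larger in the shams, -1.09 ± 0.09 (SE, adjusted p = 8.04e-08), and the difference of these was 0.58 ± 0.13 (SE, adjusted p = 0.0185). Ciart, a further repressor, was lower, at -0.66 ± 0.13 (SE, adjusted p = 0.00196), and the repressor Cry1 higher by 0.46 ± 0.08 (SE, adjusted p = 9.14e-04), as was Npas2, a partner of the clock activator Arntl, by 0.41 ± 0.10 (SE, adjusted p = 0.00818). Of 18 clock genes tested, 4 were higher and 4 lower, 44.4% against 15%, and 7 of these 8 were called the same way in the shams. Clock genes also follow feeding and the hour of collection, which the sources used here do not give, and whether the arms were collected at the same hour was not tested.

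Among remaining genes Id3, an inhibitor of basic helix-loop-helix factors that BMP signals induce, was at 46.3, 50.9, 41.6, 44.6 and 49.1 FPKM in the abx-titled wound beds and at 18.99 to 23.9 FPKM (median 19.7) in the veh-titled ones. The values were tight in each arm and far apart. The difference was 1.12 ± 0.13 (SE, adjusted p = 1.41e-05), against -0.04 ± 0.13 (SE, adjusted p = 0.879) in shams, and it differed from the shams by 1.16 ± 0.18 (SE, adjusted p = 0.00195), a call kept under every alternative. Igfbp3, a binding protein of insulin-like growth factors, was at 9.88, 10.6, 18.8, 11.6 and 8.91 FPKM against 4.96 to 7.58 FPKM (median 5.73) without overlap, higher by 0.87 ± 0.15 (SE, adjusted p = 6.50e-04). Igj, the joining chain of IgA, was higher by 1.46 ± 0.40 (SE, adjusted p = 0.0181), and Fabp6, an intestinal bile acid carrier, by 1.67 ± 0.55 (SE, adjusted p = 0.042), with abx-titled beds 4 and 6 the highest. The call of Fabp6 was lost under 11 of 20 alternatives. Col1a1 and Col1a2, chains of type I collagen, were lower, at -0.54 ± 0.16 (SE, adjusted p = 0.0292) and -0.56 ± 0.14 (SE, adjusted p = 0.0104), as they were in the shams. Of 19 fibroblast genes 3 were lower and 0 higher in wound beds, or 15.8%. Over all genes 15% were called in either direction and 7.22% were lower. In shams 16 of the 19 were lower, where 9.20% of all genes were. The arm difference was more positive in the wound beds than in the shams for 5 of the 19, against 2.62% of all genes.

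Several genes that gut bacteria are known to induce did not pass the test between the wound beds. Reg3b, Reg3g and the stem cell gene Lgr5 were too low to be tested. Retnlb, a goblet cell defence protein, was at 0.669, 0.05297, 4.53, 0.2895 and 6.38 FPKM against 0.228 to 1.56 FPKM (median 0.635), a log2 difference of 0.57 ± 0.65 (SE, adjusted p = 0.593), Duox2, an epithelial peroxide source, at 3.88, 1.02, 19.2, 8.99 and 28.3 FPKM against 4.202 to 8.48 FPKM (median 6.95), a log2 difference of 0.30 ± 0.59 (SE, adjusted p = 0.773), and Nos2 was likewise not called (0.26 ± 0.41 SE, adjusted p = 0.708). In Retnlb, Duox2 and Nos2 the abx-titled beds 4 and 6 were high and bed 2 or 3 low, and their range spanned that of the veh-titled beds. Saa1, an acute phase protein, was at 843, 545, 662, 492 and 908 FPKM against 374 to 576 FPKM (median 451) and missed the threshold (0.58 ± 0.20 SE, adjusted p = 0.0587), although it was higher in the abx-titled shams by 1.22 ± 0.19 (SE, adjusted p = 2.34e-04). Saa3 was lower, at -1.07 ± 0.34 (SE, adjusted p = 0.0387), a call lost under 12 alternatives. Of 18 genes of microbe-induced defence 2 were lower, Saa3 and Il18, or 11.1%, and 8 had an unadjusted p under 0.05. Over all genes 15% were called in either direction and 7.22% were lower. Of 22 cell cycle genes and 24 respiratory chain genes limma called 0 each, with 0 and 3 at an unadjusted p under 0.05. Of the cell cycle genes 21 of 22 pointed lower, with a median of -0.18 against 0.02 in shams, and of the respiratory chain genes 12 pointed lower and 12 higher, with a median near 0. Mki67, the proliferation marker, gave -0.30 ± 0.19 (SE, adjusted p = 0.308).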

How the data were processed

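Poly(A) RNA of colon wound beds and shams was extracted with the RNeasy Mini kit, from which TotalScript RNA-Seq kit libraries were prepared, per the labels' protocols. The authors deposited FPKM values per gene for each library; STAR, Cufflinks and the build mm10 are named in the submitters' processing notes, while for versions, annotation and strand setting nothing is given in the sources used here. The files hold no read counts, so a count test could not be used, and depth is unknown.

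From the deposited FPKM values, log2(FPKM + 1) was computed for genes at 1 FPKM or more in at least 4 libraries of the cohort. A limma model (version 3.58.1, R 4.3.3) with 1 mean per group over the wound beds and shams of the cohort, empirical Bayes with a mean trend and 19 residual degrees of freedom gave each difference, with Benjamini-Hochberg adjustment over 11849 genes. The time course was fitted alone over 13285 genes. The procedure was tested on simulated data. Python 3.11.15 with numpy 2.4.6, pandas 2.3.3 and matplotlib 3.10.9 did the rest. Of 23995 symbols, 22649 matched a unique GENCODE vM21 gene.

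Groups followed the titles. Genes were named by a rule. It took the 15 highest and 15 lowest called differences with a mean of at least 5 FPKM, up to 4 called members of each of 35 lists by adjusted p (or the 2 with the smallest p where none was called), a panel of wound and microbe-response genes, and the 5 highest and 5 lowest differences of differences. Members of the lists outside this rule, and the genes Scnn1a, Fkbp5, Cldn8, Krt16, Krt36, Gsdmc, Gsdmc2 and Gsdmc3, were added after their values were seen. Some items are not reported here. Predicted genes, receptors of smell, small RNAs and pseudogenes were passed over. The list of mitochondrially encoded genes had no measured member. The members, lists and tests were chosen with earlier results of these data known. Alternatives were a pseudocount of 0.1, other filters, scaling by median of ratios or by quantiles, array weights, only the groups compared, a replicate block, and leaving out each library.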

Additional observations from a re-analysis of the deposited data

Results flagged for a closer look

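Within an arm, 15 of 274 groups of wound bed values held a library far from the others, by a gap to its nearest neighbour divided by the range of the group, and chance marks about 1 in 20. Chil3 was lowest in veh-titled bed 6, at 0.66 FPKM against 2.16 to 3.27 FPKM in the other beds of that arm (ratio 0.684). In abx-titled bed 4, Ciart was the lowest of its arm at 2.88 FPKM, with the others at 4.02 to 4.37 FPKM and a ratio of 0.789. Col1a2 was highest in veh-titled bed 3, at 10.8 FPKM against 6.48 to 7.72 FPKM in the other beds of that arm (ratio 0.662). In veh-titled bed 1, Cxcl2 was the highest of its arm at 247 FPKM, with the others at 85.6 to 121 FPKM and a ratio of 0.672. Gal was lowest in veh-titled bed 4, at 0.291 FPKM against 8.38 to 21.1 FPKM in the other beds of that arm (ratio 0.698). In abx-titled bed 5, Gclm was the highest of its arm at 17.5 FPKM, with the others at 11.04 to 12.3 FPKM and a ratio of 0.769. Hao2 was highest in abx-titled bed 2, at 3.81 FPKM against 1.45 to 1.52 FPKM in the other beds of that arm (ratio 0.954). In veh-titled bed 1, Hcar2 was the highest of its arm at 15.2 FPKM, with the others at 4.601 to 6.91 FPKM and a ratio of 0.675. Il18bp was lowest in abx-titled bed 3, at 1.99 FPKM against 9.54 to 11.4 FPKM in the other beds of that arm (ratio 0.886). In abx-titled bed 4, Insl5 was the highest of its arm at 22.9 FPKM, with the others at 10.3 to 12.7 FPKM and a ratio of 0.743. Mki67 was lowest in abx-titled bed 3, at 1.84 FPKM against 3.14 to 3.81 FPKM in the other beds of that arm (ratio 0.716). In veh-titled bed 4, Oas1a was the highest of its arm at 15.8 FPKM, with the others at 11.1 to 12.5 FPKM and a ratio of 0.678. Pycard was highest in abx-titled bed 2, at 14.5 FPKM against 9.36 to 10.2 FPKM in the other beds of that arm (ratio 0.807). In abx-titled bed 2, Scnn1g was the highest of its arm at 38.6 FPKM, with the others at 23.2 to 26.7 FPKM and a ratio of 0.72. Ccl7 was lowest in veh-titled bed 4, at 19.5 FPKM against 79.6 to 151 FPKM in the other beds of that arm (ratio 0.684).

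For 28 of the genes described or named by the rule, the arm difference differed between wound bed and sham by the test of the difference of differences in limma. On the log2 scale the wound bed difference minus the sham difference was -2.10 for Il1a, -2.05 for Ccl3, -1.52 for Cxcl2, -1.44 for Ccl4, -1.33 for Csf3, -1.28 for Krt36, -1.18 for Cxcl1, -1.18 for Krt13, -1.18 for Krt16, -1.14 for Nlrp3, -1.05 for Gsdmc2, -1.05 for Gsdmc3, -0.68 for Gsdmc4, -0.65 for Krt14, -0.64 for Gsdmc, -0.63 for Tph1, -0.62 for Dhcr7 and -0.57 for Arc. It was positive for the others, at 1.16 for Id3, 1.06 for Erbb3, 0.99 for Col6a2, 0.98 for Clca6, 0.97 for Igfbp3, 0.77 for Cpt1a, 0.71 for Ret, 0.64 for Avil, 0.58 for Nr1d1 and 0.55 for Eng. A positive value need not mean a higher level in the abx-titled wound beds. Clca6 was lower there, at -0.55, and lower still in the abx-titled shams, at -1.53. Nr1d1 was likewise lower in both, and Erbb3 and Col6a2 were not called between the wound beds. The calls of Cpt1a, Csf3, Cxcl1, Cxcl2, Gsdmc, Gsdmc2, Gsdmc3, Id3, Il1a and Krt16 held under every alternative run. Among the others, Nlrp3 lost its call under 26 alternatives, Krt14 under 22 and Ccl4 under 21. Clca6 and Ret lost theirs under 18 each, Tph1 under 17, Gsdmc4 under 13 and Erbb3 under 11. Ccl3 and Krt13 lost theirs only with a pseudocount of 0.1, and Krt36 lost its call there as well. Cpt1a, the carnitine palmitoyltransferase of fatty acid oxidation, was higher in the abx-titled wound beds by 0.35 ± 0.10 (SE, adjusted p = 0.026) and lower in the abx-titled shams, at -0.42 ± 0.10 (SE, adjusted p = 0.00751).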

How the results depend on the processing

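Genes called between the wound beds numbered 1781, and 1846 with a pseudocount of 0.1, 1772 without a filter, 1357 with a minimum of 5 FPKM, 1539 when only the wound beds entered the fit and 1389 with the replicate number as a block. Array weights gave 3394, and leaving out the 3 beds that stood apart, an alternative chosen after seeing the data, gave 599. Leaving out 1 library gave 1189 (without abx-titled bed 5) to 1998 (without veh-titled bed 3). For shams the range was 1079 to 1769 around 1490, and for the time course 8572 to 9038. Genes whose arm difference differed between wound bed and sham numbered 392, but 213 with a minimum of 5 FPKM, 1245 with array weights, 221 with the replicate block, 167 with a replicate block by arm and number, 101 without the 3 beds, and 237 (without abx-titled bed 4) to 694 (without veh-titled bed 3) when 1 library was left out. It was 239 to 254 without abx-titled bed 5, abx-titled sham 4, veh-titled bed 1 or 6, or veh-titled sham 1 or 6. Without 2 abx-titled shams high in MHC class II genes, also chosen after seeing the data, it was 578. The cause of these shifts was not tested. Deviations of same-numbered samples correlated at -0.107 to -0.0177 between beds of the arms, -0.289 to 0.316 between shams, and -0.0855 to 0.254 (abx-titled) and -0.282 to 0.121 (veh-titled) between bed and sham. Pairs over 0.1 numbered 0 of 5, 2 of 6, 1 of 5 and 1 of 6, so the numbers were not taken to pair the samples.

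Of 111 called genes named by the rule, 49 kept their call under every alternative and none reversed, while 56 lost it without the 3 beds. Of the uncalled ones 9 were called under at least 1 alternative. Uncalled genes changed sign. With array weights S100a8 gave 0.029 and Ccl2 0.017. Without the 3 beds Acta2 gave -0.48, Col6a2 -0.048, S100a8 0.083 and Ccl7 -0.11. Leaving out 1 library gave -0.12 to 0.59 for Acta2, -0.13 to 0.83 for Duox2, -0.0042 to 0.46 for Nos2, -0.30 to 0.15 for S100a8, -0.30 to 0.083 for Ccl2 and -0.16 to 0.41 for Ccl7. Depth is unknown, since FPKM carries no read counts, so no counting error can be given.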

Other observations

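Matrix and eicosanoid genes differed in a few members. Of 16 matrix proteases and regulators 3 were lower and 1 higher in the abx-titled wound beds, or 25.0% against 15% of all genes. Plau, the plasminogen activator uPA, was at 9.21, 9.59, 8.36, 7.73 and 9.58 FPKM against 12.6 to 20.2 FPKM (median 14.6), a log2 difference of -0.72 ± 0.13 (SE, adjusted p = 6.89e-04). Mmp10, stromelysin-2 of wound edge epithelium, was at 17.7, 24.1, 15.7, 12.6 and 13.9 FPKM against 18.8 to 38.9 FPKM (median 24.5), a log2 difference of -0.60 ± 0.14 (SE, adjusted p = 0.00718), and the gelatinase Mmp2 was lower, at -0.50 ± 0.11 (SE, adjusted p = 0.00322). Plau and Mmp2 were also lower in the abx-titled shams, at -0.54 ± 0.12 (SE, adjusted p = 0.00447) and -0.97 ± 0.10 (SE, adjusted p = 2.26e-06), while Mmp10 was not called there. Of 15 prostaglandin and eicosanoid genes 4 were lower and 2 higher, or 40.0% against 15% of all genes. Beside Ptgs2, the lower ones were Alox12 (-0.58), Lta4h (-0.35) and Pla2g4a (-0.40), and the higher ones were the prostaglandin E2 receptor Ptger3 (0.59) and the prostaglandin transporter Slco2a1 (0.51). In the shams 2 of the 4 lower and 1 of the 2 higher were called in the same direction.

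Immune cell markers differed in part. Summed T and NK cell markers were at 19.2 to 29.4 FPKM in the abx-titled and 12.3 to 16.99 FPKM in the veh-titled wound beds, without overlap, and at 40.7 to 57.1 FPKM and 25.3 to 35.3 FPKM in the shams. Only 3 of their 23 measured members were high enough to test. Summed eosinophil and mast cell markers overlapped, at 22.6 to 37.9 FPKM and 22.6 to 48.8 FPKM in the wound beds. Of 5 tested members 1 was called, or 20% against 15% of all genes. That member, Mcpt2, a protease of mucosal mast cells, was at 1.99, 3.43, 5.79, 2.48 and 4.42 FPKM against 0.727 to 2.01 FPKM (median 1.19), a log2 difference of 0.97 ± 0.16 (SE, adjusted p = 2.79e-04). Mcpt2 was also higher in the abx-titled shams, by 0.46 ± 0.15 (SE, adjusted p = 0.043). Among secretory genes, Insl5, a hormone of colonic L cells, was at 12.7, 10.7, 22.9, 10.3 and 12.3 FPKM against 22.4 to 41.5 FPKM (median 30.8), a log2 difference of -1.11 ± 0.25 (SE, adjusted p = 0.00542). Tph1, the enzyme of serotonin synthesis in enterochromaffin cells, was lower, at -0.55 ± 0.12 (SE, adjusted p = 0.00386). Scg2 and Avil, of the same list of enteroendocrine and tuft cell genes, were higher. Their differences were 0.72 ± 0.20 (SE, adjusted p = 0.0174) and 0.41 ± 0.11 (SE, adjusted p = 0.0125). Of 11 members tested, 2 were higher and 2 lower, or 36.4% against 15% of all genes. Spdef and Agr2, of goblet cells, were lower, at -0.51 ± 0.11 (SE, adjusted p = 0.00488) and -0.47 ± 0.14 (SE, adjusted p = 0.0329). The call of Agr2 was lost under 9 of 20 alternatives and that of Spdef under 1. Of 14 goblet cell genes 2 were lower and 0 higher, or 14.3%. Over all genes 15% were called in either direction and 7.22% were lower.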
